A study of Mus musculus with 6 samples.

Results

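Malat1, Neat1, Meg3, Rian, Mirg, Miat, Snhg11 and Kcnq1ot1, 8 long noncoding RNAs that are retained in the nucleus, imprinted or neuronal, were picked out by gene symbol from a table of raw counts for 55573 mouse genes. All 8 were found. Malat1 and Neat1 are made in most cell types, and the other 6 are imprinted or mainly neuronal. The 6 libraries were made from total RNA, without selection for poly(A) tails, of cells purified by FACS as retinal ganglion cells (RGCs), the output neurons of the retina. Every library came from C57BL/6 mice with floxed Myh9 and Myh10, which encode motor proteins of the actin cytoskeleton (nonmuscle myosin IIA and IIB). The controls therefore carried the floxed alleles as well, and the groups differed in the vector given into the vitreous 2 weeks before sacrifice: AAV2-GFP in the 3 libraries labelled WT and AAV2-Cre in the 3 labelled dKO. Each library pooled 3 retinas, 1 from each of 3 mice. The labels give no age, no sex, no promoter for Cre and no share of cells it reached. They also do not say if replicates within a group share animals, so the spread between libraries may be technical.

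Nuclear long noncoding RNAs stay in the nucleus, where they are made. Malat1 gathers in nuclear speckles, which store splicing factors, while Neat1 is the scaffold on which paraspeckles form and which holds RNA-binding proteins such as Sfpq and Nono. Meg3, Rian and Mirg lie one after another in the imprinted Dlk1-Dio3 domain and are made from the maternal chromosome. Rian is the host of a cluster of small nucleolar RNAs (snoRNAs) and Mirg of a cluster of microRNAs, and in the adult mouse the RNAs of this domain are best known from brain. Kcnq1ot1 is made from the paternal chromosome inside the gene Kcnq1 and silences its neighbours there. Miat was first described in retina as a nuclear RNA of neurons, and Snhg11 is a snoRNA host transcript found mostly in neurons.

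Between 346037 and 576060 counts lay outside the ribosomal RNA row CT010467.1 in 5 libraries and 1636581 in dKO replicate 3, where that row took 64.2% of the total against 89.8% to 92.8% elsewhere. Levels are given as CPM after TMM scaling, with the ribosomal RNA row in the library size. The Cre target Myh9 stood at 64.2 ± 3.91 CPM (SD, n = 3; labelled WT) against 62.7 ± 4.13 (SD, n = 3; labelled dKO), and Myh10 at 18.7 ± 2.08 against 18.0 ± 3.39. The whole-gene count thus did not separate the groups (log2 fold change -0.04 ± 0.10 SE for Myh9 and -0.15 ± 0.14 SE for Myh10); the floxed exons were not counted apart, so these totals do not check the deletion. Markers of RGCs were sparse, at 0.0294% ± 0.0027 (WT) and 0.0387% ± 0.0013 (dKO) of the counts that lay outside this row (SD, n = 3 each), and the RGC transcription factor Pou4f2 had counts of 0, 0 and 0 against 0, 2 and 5. Markers of Müller glia and astrocytes took 3.38% ± 0.0555 and 3.602% ± 0.130 (SD, n = 3 each), so the pools held RNA of other retinal cells. In such pools fewer cells of a type and less RNA per cell cannot be told apart.

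Malat1 (ENSMUSG00000092341) dominated the set. Its gene spans positions 5795690 to 5802672 on the minus strand of chromosome 19 (GRCm38, GENCODE M21) as a transcript of 6983 bases. WT replicates 1 to 3 had 6327, 5007 and 5769 counts, and dKO replicates 1 to 3 had 6994, 5172 and 18489. These made up 96.8% to 97.9% of all counts on the 8 genes, and Malat1 ranked between 4 and 5 among all genes by count in each library. Without the ribosomal RNA row, its share of counts was 1.34% ± 0.0943 where labelled WT and 1.16% ± 0.0458 where labelled dKO (SD, n = 3 each). Of the 74 other long noncoding genes that passed the filter on low counts, 73 had a lower mean CPM in the libraries labelled WT, and the exception overlaps the ribosomal RNA row by 1831 bases on the opposite strand.

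Scaled between libraries, Malat1 stood at 1383, 1586 and 1471 CPM (WT replicates 1 to 3) against 1342, 1255 and 1207 CPM (dKO replicates 1 to 3). The groups did not overlap, and all 3 libraries labelled dKO lay below all 3 labelled WT. Genes whose groups did not overlap in this direction made up 8.31% of the 8444 genes tested, so the separation alone is common. The means were 1480 ± 102 and 1268 ± 68.5 CPM (SD, n = 3 each), a log2 fold change of -0.22 ± 0.12 (SE), with a 95% interval from -0.45 to 0.01. Malat1 was not called lower by edgeR's quasi-likelihood test. It was above 0 with library-total scaling (0.97) and was called lower with limma-voom, at -0.24, a tool that called 1.26% of all genes lower and 0.687% higher. The observed coefficient of variation of its CPM was 6.90% in WT and 5.40% in dKO against 1.33% and 1.14% from counting alone, so the precision of Malat1 was set by the spread between libraries and not by depth.

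**Figure D1:**
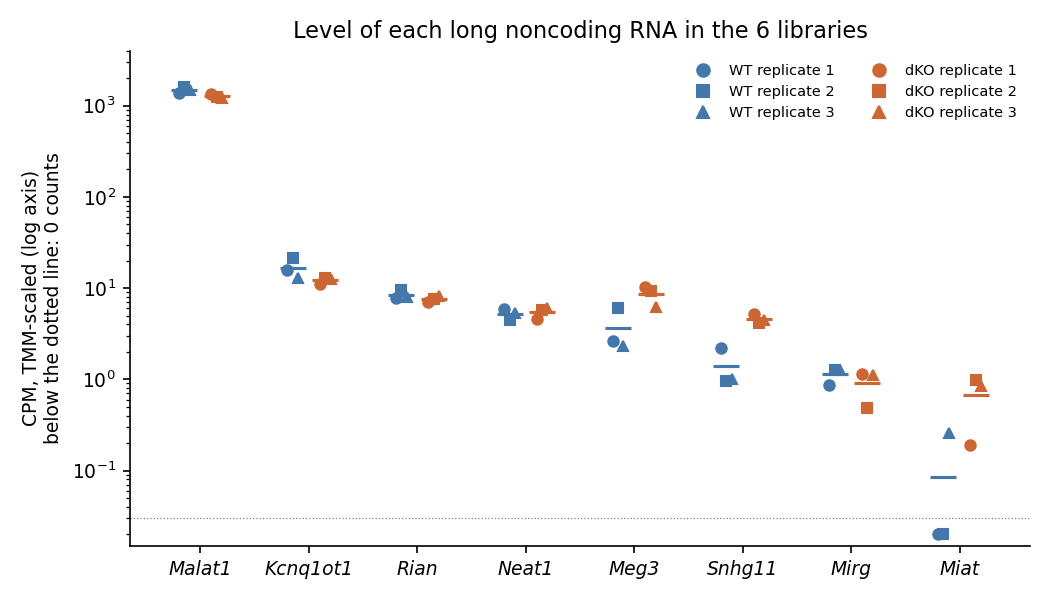
TMM-scaled CPM (log axis) of each of the 8 RNAs in the 6 libraries, with WT in blue, dKO in orange and the 3 replicates as circles, squares and triangles; short bars are group means, and points below the dotted line had 0 counts. Malat1, between 1207 and 1586 CPM, stands far above the other 7, and Meg3 and Snhg11 lie higher in every library labelled dKO.

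Neat1 lies on the same strand, at positions 5824708 to 5845478 of chromosome 19, and its 3' end is 22.04 kb from the 5' end of Malat1. Its longest transcript in GENCODE M21, Neat1-201, has 20771 bases. Both genes make transcripts whose 3' ends are not formed by a poly(A) tail in the usual way but by cleavage next to a tRNA-like structure, after which an A-rich tract pairs with U-rich motifs. A library without poly(A) selection does not depend on such a tail. Those elements are shown for both RNAs, 120 bases of the transcript strand from GENCODE M21 ending at the A-rich tract. Capitals mark the tract, the last 10 bases, and U-rich motifs of 10 bases before it.
Malat1-201, chr19:5795982-5796101: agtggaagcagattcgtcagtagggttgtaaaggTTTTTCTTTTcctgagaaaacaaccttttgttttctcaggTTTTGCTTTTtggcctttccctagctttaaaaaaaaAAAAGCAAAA
Neat1-201, chr19:5824708-5824827: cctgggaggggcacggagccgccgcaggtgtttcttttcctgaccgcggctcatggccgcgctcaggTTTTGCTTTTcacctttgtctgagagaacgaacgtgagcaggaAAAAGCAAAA
The U-rich motif nearest the tract was the same 10 letters in both windows. A further motif upstream was searched only as the exact 10 letters of Malat1, so Malat1 alone has it in capitals. The Neat1 window holds a similar T-rich stretch upstream, left in small letters because it is not an exact match. The search thus does not show that Neat1 lacks a further U-rich motif. The search was on the transcript strand. Among 137364 GENCODE M21 transcripts of at least 120 bases, 4 from 3 genes held that shared motif and the tract in this order within 120 bases, a share of 0.00291%. Malat1 and Neat1 are themselves among these 3 genes, since the strings are those of their own windows. The share is therefore no independent measure of how particular the element is. The annotated Neat1 model ends at the tract, while the Malat1 model runs on for 292 bases past it.

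Neat1 was sparse. WT replicates 1 to 3 had 27, 14 and 21 counts, and dKO replicates 1 to 3 had 24, 24 and 92, or 5.90, 4.44 and 5.36 CPM against 4.61, 5.82 and 6.01 CPM. The groups overlapped: dKO replicates 1 and 2 lay among the libraries labelled WT. Neat1 did not pass the test, with a log2 fold change of 0.09 ± 0.23 (SE) and a 95% interval from -0.38 to 0.55, and that interval holds both a modest decrease and a modest increase. Per kilobase of exon, Malat1 exceeded Neat1 by a factor of 598 to 1064 in the 6 libraries (median 757). The neighbours on chromosome 19 thus differed in level. The groups overlapped for Neat1 and not for Malat1, but the interval of Neat1 holds Malat1's log2 fold change of -0.22. The difference between the genes was not tested.

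Levels per kilobase of exon, in CPM with the ribosomal RNA row left out of the library size, put the other RNAs close together. In the libraries labelled WT, Malat1 was at 1920 ± 135 and Rian, the next, at 4.19 ± 0.494 (SD, n = 3 each). Neat1 followed at 2.28, Meg3 at 1.83, Kcnq1ot1 at 1.62, Snhg11 at 1.48 and Mirg at 1.41, and among these 5 the ranges over libraries of neighbours in the order overlapped. Rian lay above all of them in every library, and Miat was last at 0.0813. In the libraries labelled dKO, Malat1 was at 1663 ± 65.6 (SD, n = 3), and Snhg11 at 4.93, Meg3 at 4.33 and Rian at 3.83 came next, where the ranges of Snhg11 and Meg3 and those of Meg3 and Rian overlapped but Snhg11 lay above Rian in every library. Neat1 was below them at 2.42, and Kcnq1ot1 at 1.20, Mirg at 1.15 and Miat at 0.664. Exon length here is the union of all annotated exons. The order depends on the length used. With the longest transcript, which for Rian is 8089 bases in place of 18234, the WT levels were 9.44 for Rian, 2.695 for Mirg, 2.28 for Neat1 and Meg3 and 2.15 for Snhg11. On that length the dKO levels were 8.64 for Rian, 7.16 for Snhg11, 5.38 for Meg3, 2.42 for Neat1 and 2.20 for Mirg. By these means Mirg stood above Neat1 in WT, and Rian above Snhg11 in dKO, but not in every library. In WT replicate 1 Mirg was at 2.10 and Neat1 at 2.60. In dKO replicate 1 Rian was at 7.94 and Snhg11 at 7.99.

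Meg3 (ENSMUSG00000021268) was the highest by fold of the 3 RNAs from the Dlk1-Dio3 domain. Its gene lies at positions 109541001 to 109571726 on the plus strand of chromosome 12 and has 11 annotated transcripts. WT replicates 1 to 3 had 12, 19 and 9 counts, and dKO replicates 1 to 3 had 54, 38 and 94. With WT replicate 3 below the minimum of 10 counts, Meg3 passed the filter only with the help of libraries labelled dKO. In CPM it was at 2.62, 6.02 and 2.29 in the libraries labelled WT and at 10.4, 9.22 and 6.14 in those labelled dKO. The groups separated by a small margin, with the lowest library labelled dKO (replicate 3) just above the highest labelled WT (replicate 2). Group means were 3.65 ± 2.06 and 8.57 ± 2.19 CPM (SD, n = 3 each), a log2 fold change of 1.17 ± 0.26 (SE; 95% interval 0.65 to 1.70).

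Rian, which starts 32.2 kb past the end of Meg3 on the same strand (positions 109603940 to 109661716), had counts of 36, 30 and 31 (WT replicates 1 to 3) against 37, 31 and 126 (dKO replicates 1 to 3). It was at 7.87, 9.51 and 7.91 CPM against 7.10, 7.52 and 8.23 CPM. The groups overlapped, and the log2 fold change was -0.09 ± 0.19 (SE; 95% interval -0.47 to 0.28). That interval does not reach the lower bound of Meg3's, but the difference between the genes was not tested. Mirg, 68.0 kb further on (positions 109729764 to 109749460), had counts of 4, 4 and 5 against 6, 2 and 17 and was not tested. Its scaled ratio of dKO to WT counts was 0.909, with an exact binomial 95% interval from 0.448 to 1.94 that covers counting error only.

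Within a library, where scaling plays no part, Meg3 had 0.333, 0.633 and 0.290 counts per Rian count in WT replicates 1 to 3. In dKO replicates 1 to 3 the ratio was 1.46, 1.23 and 0.746. Every library labelled dKO thus lay above every library labelled WT, and Meg3 exceeded Rian in dKO replicates 1 and 2 but in none of the libraries labelled WT.

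**Figure D2:**
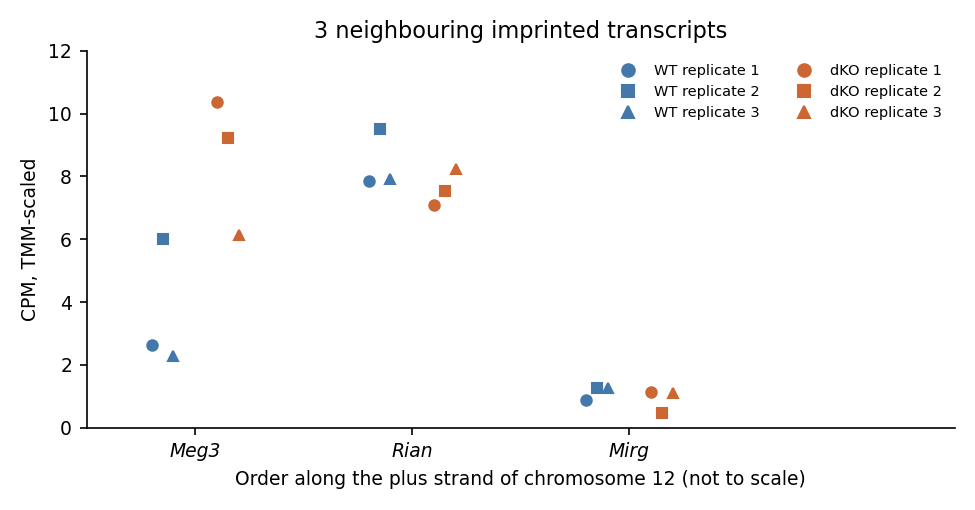
TMM-scaled CPM of Meg3, Rian and Mirg, ordered as they follow each other on chromosome 12 (not to scale), in the 6 libraries, with WT in blue and dKO in orange. Meg3 lies between 2.29 and 6.02 CPM in WT and between 6.14 and 10.4 CPM in dKO, while the groups overlap for Rian and Mirg.

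The promoter window of Meg3 is printed because Meg3 was called and Rian, which is thought to be transcribed partly through from it, was not. The 300 bases around the annotated start come from RefSeq on GRCm38.p6, as do the other promoters here; 7 of the 8 RNAs matched, with 8 windows. Capitals mark matches on either strand. The motifs searched were TGACGTCA, the cyclic AMP response element, and its core TGACG. The CCAAT box was searched as well. The TATA box was searched as TATAAA and also in the longer form, which is TATATAA.
Meg3, chr12:109540746-109541045, plus strand: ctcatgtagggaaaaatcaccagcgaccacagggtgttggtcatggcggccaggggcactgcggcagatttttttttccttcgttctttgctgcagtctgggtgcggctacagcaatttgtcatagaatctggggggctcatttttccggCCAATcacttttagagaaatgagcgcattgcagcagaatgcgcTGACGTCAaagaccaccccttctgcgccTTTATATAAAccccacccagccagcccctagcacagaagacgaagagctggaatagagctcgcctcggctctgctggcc
The Meg3 window held TGACGTCA, which 1.79% of all 32851 such windows hold, CCAAT (37.4%) and, overlapping each other in the run of T and A, TATAAA (13.6%) and TATATAA (3.24%). The TGACGTCA match contains TGACG on both strands. A second Meg3 window at an inner start, and the Rian window, held none of these letters.

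Around these RNAs the domain held few counts. From Begain to Dio3 (positions 109032187 to 110281097) the table has 121 genes. The 118 other than Meg3, Rian and Mirg held 251 counts over all libraries, 187 of them in Begain, and 21 had any count. The 69 microRNA rows shared 17 counts and the 23 snoRNA rows 3 counts, so small RNAs processed from Rian and Mirg were barely represented in the counts. How reads shared by overlapping genes were counted is not given, so these rows do not measure the level of the small RNAs. None of the 18 genes overlapping Rian had a count, and of the 15 overlapping Mirg, Mir453 had 1. The genes made from the paternal chromosome were also low: Dlk1, a Notch-like ligand, and Rtl1, a retrotransposon-derived gene, were at 0 in all 6 libraries, and Dio3, which inactivates thyroid hormone, had 12 counts in all. Begain, a synaptic gene, was the one other gene of the domain to pass the filter and was at 6.30 ± 0.928 CPM (WT) and 5.0 ± 0.832 CPM (dKO; SD, n = 3 each), with a log2 fold change of -0.45 ± 0.23 (SE; edgeR adjusted p = 0.42).

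Kcnq1ot1 is the longest of the 8, 93092 bases on the minus strand of chromosome 7 (positions 143203458 to 143296549), antisense to Kcnq1. WT replicates 1 to 3 had 72, 67 and 51 counts, and dKO replicates 1 to 3 had 58, 53 and 193. It was at 15.7, 21.2 and 13.01 CPM in the libraries labelled WT and at 11.1, 12.9 and 12.6 CPM in those labelled dKO. The groups did not overlap, though WT replicate 3 was close to the libraries labelled dKO. Its log2 fold change was -0.41 ± 0.15 (SE), with an unadjusted 95% interval from -0.71 to -0.11, and it was not called after adjustment over all genes. Kcnq1 itself, a potassium channel gene, had 2 counts in all, both in dKO replicate 3. The strand setting of the counting is not given, and reads of the opposite strands cannot be told apart without it. Of the 14 other listed genes of the Kcnq1 and H19-Igf2 domains, 5 were tested and 0 called. Cd81, a membrane tetraspanin, had a log2 fold change of 0.18 ± 0.09 (SE; edgeR adjusted p = 0.416) and Nap1l4, a histone chaperone, of 0.12 ± 0.16 (SE; edgeR adjusted p = 0.819). Cdkn1c, a cell cycle inhibitor that Kcnq1ot1 is known to silence, had 94 counts in all and was not tested.

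The Kcnq1ot1 promoter is shown because, of the 7 RNAs with a window, it alone held CCAAT at several positions.
Kcnq1ot1, chr7:143296498-143296797, minus strand: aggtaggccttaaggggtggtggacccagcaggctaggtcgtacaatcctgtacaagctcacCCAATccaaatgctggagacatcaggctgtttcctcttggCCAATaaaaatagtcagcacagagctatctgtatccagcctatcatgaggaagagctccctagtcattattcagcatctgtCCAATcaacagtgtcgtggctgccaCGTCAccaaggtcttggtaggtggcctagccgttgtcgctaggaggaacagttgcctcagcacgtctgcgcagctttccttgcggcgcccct
It held CCAAT at 3 positions and 1 match to TGACG, the latter on the reverse strand, where it reads CGTCA. At least 1 TGACG was found in 20.8% of all windows. The Malat1 window, printed for the RNA with the highest level, held 3 TGACG matches and none of the other motifs.
Malat1, chr19:5802623-5802922, minus strand: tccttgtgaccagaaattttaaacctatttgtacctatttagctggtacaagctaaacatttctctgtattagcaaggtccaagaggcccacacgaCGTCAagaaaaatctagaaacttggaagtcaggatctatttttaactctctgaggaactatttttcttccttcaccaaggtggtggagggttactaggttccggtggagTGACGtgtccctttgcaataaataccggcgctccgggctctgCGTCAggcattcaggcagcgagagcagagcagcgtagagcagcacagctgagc

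Snhg11 had the largest fold change of the 6 tested RNAs. The gene lies at positions 158375638 to 158386145 on the plus strand of chromosome 2 and carries a protein-coding biotype in GENCODE M21, though it is known as a noncoding snoRNA host. WT replicates 1 to 3 had 10, 3 and 4 counts, and dKO replicates 1 to 3 had 27, 17 and 68. WT replicates 2 and 3 lay below the filter's minimum of 10 counts. The gene thus entered the test through the libraries labelled dKO, where it was high, and the rank and call of Snhg11 carry that limit. In CPM it was at 2.19, 0.951 and 1.02 in the libraries labelled WT and at 5.18, 4.13 and 4.44 in those labelled dKO, so the groups were well apart. Means were 1.39 ± 0.694 and 4.58 ± 0.543 CPM (SD, n = 3 each), a log2 fold change of 1.63 ± 0.35 (SE; 95% interval 0.93 to 2.33). The spread of its WT libraries, a coefficient of variation of 50.1%, was close to the 47.7% that counting alone gives, so depth limits this value. Its promoter, shown for contrast with that of Meg3, held none of the motifs.
Snhg11, chr2:158375463-158375762, plus strand: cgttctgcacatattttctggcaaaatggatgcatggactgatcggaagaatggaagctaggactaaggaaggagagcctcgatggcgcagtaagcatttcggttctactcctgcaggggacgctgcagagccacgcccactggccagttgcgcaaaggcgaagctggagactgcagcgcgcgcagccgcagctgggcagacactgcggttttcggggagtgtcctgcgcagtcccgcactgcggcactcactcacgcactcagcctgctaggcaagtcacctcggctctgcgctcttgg

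Miat, at positions 112213228 to 112229395 on the minus strand of chromosome 5, was close to absent. WT replicates 1 to 3 had 0, 0 and 1 counts, and dKO replicates 1 to 3 had 1, 4 and 13, and it was not tested. The scaled ratio of dKO to WT counts was 8.51, with an exact binomial interval from 1.34 to 355 that covers counting error only. Its mean level was the lowest of the 8 in both groups.

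Set side by side, 2 of the 6 tested RNAs were called higher in the libraries labelled dKO, Meg3 and Snhg11, and 0 lower. Among all 8444 genes 0.734% were called higher and 1.18% lower, 1.92% in all. Because the RNAs were chosen with this contrast known, nothing is read from that count. Groups did not overlap for Meg3 and Snhg11 on the higher side, where 8.66% of all genes did not overlap, and for Malat1 and Kcnq1ot1 on the lower side. The median log2 fold change of the 6 was -0.004, against -0.001 for all genes tested. The broadly expressed RNAs were at -0.22 (Malat1) and 0.09 (Neat1), and the imprinted or neuronal ones ran from -0.41 (Kcnq1ot1) to 1.63 (Snhg11). The imprinted RNAs did not all have the same sign: Meg3 was above 0, while Rian and Kcnq1ot1 were below 0, except with library-total scaling, where all of them were above 0.

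**Figure D3:**
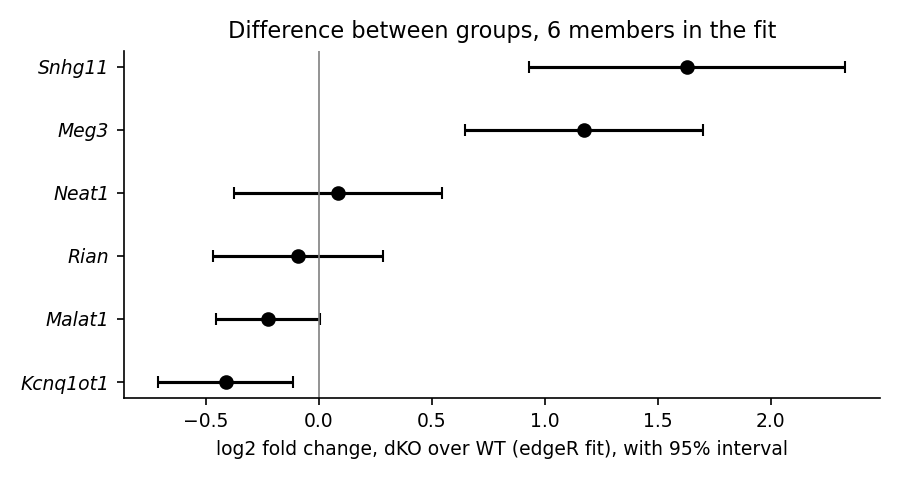
Log2 fold change of dKO over WT for the 6 RNAs that passed the filter on low counts, as points with 95% intervals from the edgeR fit on 3 libraries per group. Meg3 (1.17) and Snhg11 (1.63) lie to the right of 0, the interval of Kcnq1ot1 ends at -0.11, and those of Malat1, Neat1 and Rian include 0.

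The calls of Meg3 and Snhg11 were each lost with DESeq2, where the log2 fold changes were 1.25 and 1.67 and 0.308% of all genes were called higher and 0.308% lower. Meg3 also lost its call when WT replicate 1 (0.96) or WT replicate 3 (0.95) was left out, and both lost it with library-total scaling, which moved the median of all genes by 1.21. The genes named here with a value below 0 that were refitted, Malat1, Rian, Kcnq1ot1, Sfpq and Xist among them, were above 0 under that scaling, each by less than this shift.

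Expressed per 1000 Malat1 counts of the same library, a measure free of scaling between libraries, Meg3 stood at 1.90, 3.795 and 1.56 (WT replicates 1 to 3) against 7.72, 7.35 and 5.08 (dKO replicates 1 to 3). Snhg11 was at 1.58, 0.599 and 0.693 against 3.86, 3.29 and 3.68. Both groups of values were apart, with mean log2 ratios higher by 1.56 for Meg3 and 2.05 for Snhg11 in the libraries labelled dKO. These ratios also depend on Malat1, which after TMM scaling was lower in every library labelled dKO (log2 fold change -0.22). A lower Malat1 raises each ratio to it. Neat1, at 4.27, 2.80 and 3.64 against 3.43, 4.64 and 4.98, overlapped between groups. Rian stayed close to level, between 5.29 and 6.82 in all 6 libraries. Kcnq1ot1 ran from 8.29 to 13.4, and its groups overlapped on this measure although they had not in CPM.

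**Figure D4:**
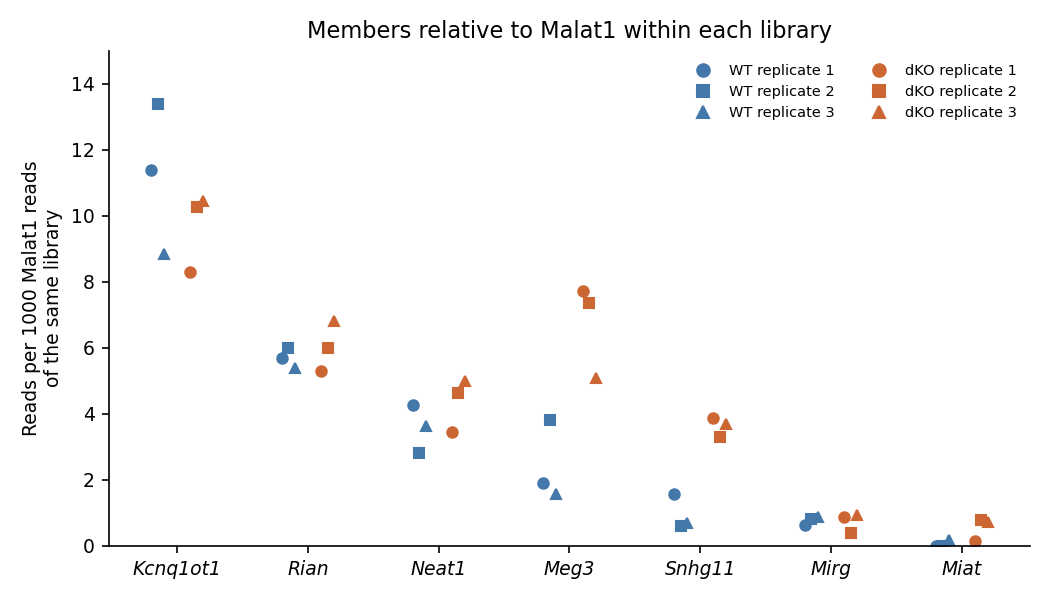
Counts of the other 7 RNAs per 1000 Malat1 counts of the same library, with WT in blue, dKO in orange and replicates as circles, squares and triangles. Meg3 and Snhg11 are higher in all 3 libraries labelled dKO, Rian stays between 5.29 and 6.82, and Mirg and Miat lie near 0.

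Markers of other cells moved with the same contrast. Rod markers were at 0.189% ± 0.0127 (WT) and 0.385% ± 0.0425 (dKO) of counts, that row left out (SD, n = 3 each), with 8 of 13 tested rod genes called higher, among them the rod transducin gene Gnat1 (25.4 ± 1.97 to 49.8 ± 8.41 CPM). Bipolar cell markers took 0.234% ± 0.0047 and 0.174% ± 0.0039, with 5 of 12 tested called lower. Of 16 RGC markers 5 were tested and 1 was called higher, the neurofilament gene Nefl (2.24 ± 0.718 to 7.16 ± 0.583 CPM; log2 fold change 1.63 ± 0.28 SE, edgeR adjusted p = 3.96e-05). The RGC surface marker Thy1, the most abundant of the list, was at 10.7 ± 0.359 and 10.3 ± 1.13 CPM. Pan-neuronal markers summed to 0.0984% ± 0.0018 and 0.110% ± 0.0053, with 0 of 8 tested called. The median log2 fold change was 0.86 for the tested RGC markers (3 of 5 above 0) and 0.10 for the pan-neuronal ones (6 of 8). The RGC median is the value of Tubb3, a gene of both lists that was not called. The most abundant tested RGC markers, Thy1 (-0.07) and Isl1 (-0.65), were below 0, and Isl1 is also on the bipolar list. Some markers too low for the test were higher in every library labelled dKO, such as Uchl1 (0.506 and 1.75 CPM), Slc17a6 (0.421 and 1.23) and Nefm (0.389 and 1.47). Others overlapped between groups, such as Rbpms (1.84 and 1.88), Nefh (1.08 and 1.13) and Sncg (1.63 and 1.83). The part of these cell types in the values of Malat1, Meg3, Snhg11, Kcnq1ot1, Sfpq and Bc1 was not tested.

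Of the proteins of the paraspeckle, which Neat1 builds, 16 were tested, and 0 were called higher and 1 lower (median log2 fold change -0.14). Sfpq, an RNA-binding protein that paraspeckles need, fell from 19.5 ± 2.95 to 13.7 ± 0.115 CPM (log2 fold change -0.51 ± 0.14 SE, edgeR adjusted p = 0.0266), and it lost that call in 7 of 16 alternatives beside library-total scaling, among them DESeq2 and the thinning of dKO replicate 3. The most abundant of the list, Hnrnpk, was at 52.1 ± 4.41 and 53.5 ± 3.15 CPM. Of 21 speckle and splicing factors tested, 0 were called (median -0.16). The scaffold protein Srrm2 was at -0.33 ± 0.11 (SE; edgeR adjusted p = 0.133) and the splicing factor Tra2b at -0.47 ± 0.17 (SE; edgeR adjusted p = 0.159), while Son, the most abundant, was at -0.19 ± 0.10 (SE). All genes tested had a median of -0.001, with 62 called higher and 100 lower.

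Of 18 other snoRNA hosts, the class to which Snhg11 belongs, 5 were tested and 0 called (median -0.05), with Snhg14 at 0.36 ± 0.28, Zfas1 at -0.27 ± 0.29 and Gas5, the most abundant, at -0.05 ± 0.13 (log2 fold change, SE). Among 7 tested broadly expressed long noncoding RNAs, 1 was called: Xist, which silences an X chromosome in females, fell from 123 ± 16.3 to 81.7 ± 10.9 CPM (log2 fold change -0.61 ± 0.10 SE, edgeR adjusted p = 2.40e-05). The sex of the pooled mice is not given, and its part in this value was not tested. Among 7 tested neuronal and retinal long noncoding RNAs, 1 was called: Bc1, a short dendritic RNA of neurons, rose from 2.28 ± 0.742 to 5.31 ± 0.315 CPM (log2 fold change 1.16 ± 0.30 SE, edgeR adjusted p = 0.016). It lost its call with DESeq2, with limma-voom, and when WT replicate 1 or WT replicate 2 was left out. The most abundant of that list, C130071C03Rik, was at -0.20 ± 0.11 (SE).

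Of 36 other imprinted genes, 19 were tested and 0 called (median 0.13). Groups did not overlap for 3 of the 19, a share no higher than the 17% of all genes tested. The ubiquitin ligase gene Ube3a was at -0.25 ± 0.12 (SE; edgeR adjusted p = 0.351), the growth factor adaptor Grb10 at -0.33 ± 0.17 (SE; edgeR adjusted p = 0.416) and Gnas, the most abundant, at 0.01 ± 0.10 (SE). Over all 74 other long noncoding genes tested, 1 was called higher and 4 lower, or 6.757% against 1.92% of all genes tested, with a median of -0.05. The 4 lower ones include Xist and the gene that overlaps the ribosomal RNA row by 1831 bases. That share thus rests on few genes and is not read as a trait of the class. The highest of the 74 values was that of Bc1 (1.16), close to that of Meg3 (1.17) and well within its standard error.

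**Figure D5:**
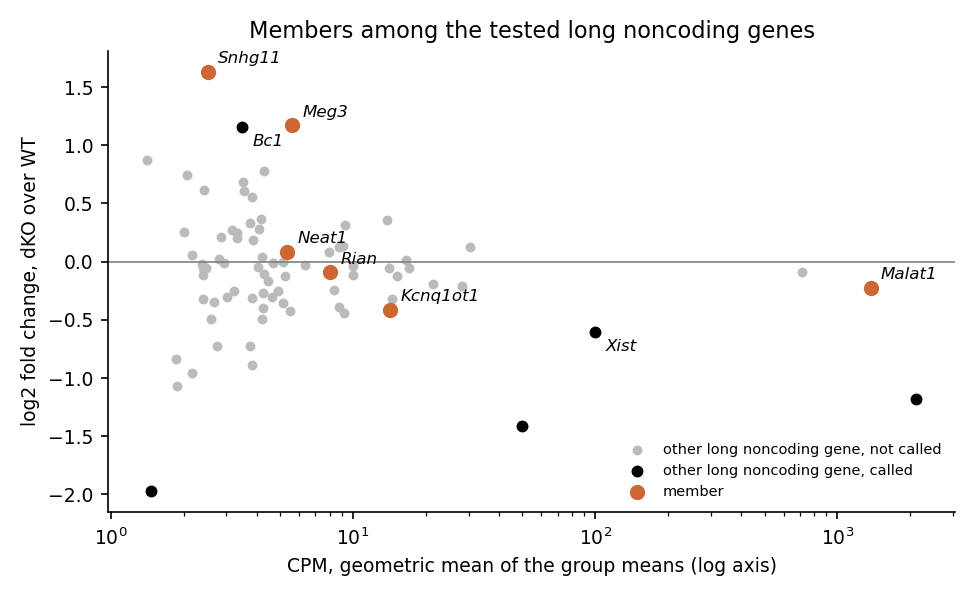
Log2 fold change of dKO over WT against the geometric mean of the group means in CPM (log axis) for the tested long noncoding genes, with the 6 tested RNAs of the set in orange (Snhg11 has a protein-coding biotype in GENCODE M21), other called genes in black and uncalled ones in grey. Snhg11 (1.63) is the highest point, Meg3 (1.17) and Bc1 (1.16) lie at about the same height below it, and Malat1 lies far to the right.

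Genes with the most similar profile over the 6 libraries were found by the root mean square difference of centred log2 CPM among 2334 genes that averaged 10 CPM or more. For Malat1 these were Ptprd (0.0247), a receptor phosphatase of neurons, Pfkp (0.0327), a glycolytic enzyme, and Magi3 (0.0403), a scaffold protein. Neat1 was nearest to Coro1b (0.0548), an actin regulator, Sgpl1 (0.0621), which breaks down sphingosine phosphate, and Cnot1 (0.0738), the scaffold of an mRNA deadenylase. Meg3 had no near match among these genes: the closest were Fat3 (0.397), a cadherin of retinal amacrine cells, Rprl3 (0.462), a short noncoding RNA, and the rod transducin gene Gnat1 (0.516). Meg3 and Neat1 themselves averaged below 10 CPM, so genes of their own level were not candidates. For Meg3 in WT, counting alone gives a coefficient of variation of 28.7%, which also limits how near a match can be. All of the genes compared share the same libraries, depth and scaling.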

How the data were processed

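The table deposited by the authors holds raw read counts per Ensembl gene. Per the labels' protocols, total RNA was isolated with a PicoPure kit and made into libraries with a TruSeq stranded total RNA kit. The submitters' processing notes list GRCm38, STAR 2.7.0d and DESeq2 1.22.2. No counter, strand setting or annotation release is given in the sources used here.

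Of 55573 IDs, 55480 were found in GENCODE M21, used for positions and lengths. Low genes were removed with filterByExpr (at least 10 counts, 15 in total). The minimum is scaled by the library total, ribosomal RNA row included, and must be reached in as many libraries as a group holds. After TMM scaling the other genes were tested with edgeR 4.0.16 (quasi-likelihood F test, two-sided, group as the only term); a Benjamini-Hochberg adjusted p under 0.05 over the 8444 genes was a call. The standard error is the log2 fold change over the square root of F. The filter kept 6 of the 8 RNAs. Of these, Meg3 and Snhg11 passed only with the help of the libraries labelled dKO, as did Bc1, Nefl and Slc6a9 among the other named genes. Total counts were 4569880 to 6146226 per library, and the smaller counts outside the ribosomal RNA row set the precision; intervals on counts cover counting error only.

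The 8 RNAs and the gene lists were chosen with earlier results of these data known, so the difference of the 8 RNAs between groups is given without p-values. From each related list the called genes (up to 4), or, with none called, the 2 of smallest p, plus the most abundant tested gene are named, and from each marker list the 2 most abundant; predicted genes are counted only. Some genes that this rule names are left out of the text but stayed in all fits, counts and sums. Other marker lists (amacrine cells, cones, microglia, T and NK cells, B cells, endothelium, oligodendrocytes) are given in the closing section. Tried as alternatives were scaling by RLE, by upper quartile and by library total, leaving out the ribosomal RNA row, 2 other filters, DESeq2 1.42.0, limma-voom (limma 3.58.1), a robust dispersion, a block for the replicate number, leaving out 1 library at a time, dKO replicate 3 thinned to 0.283 of its counts, and an adjusted p under 0.1.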

Additional observations from a re-analysis of the deposited data

How the results depend on the processing

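Counting error was as large as the spread between libraries or larger for Neat1 and Rian in both groups, while for Malat1 in both groups, Meg3 in both groups and Kcnq1ot1 in WT the spread was more than counting error gives. Over all genes, 3 were called higher and 0 lower with library-total scaling, 26 and 26 with DESeq2, 108 higher at an adjusted p under 0.1, and, leaving out each library in turn, 29 to 71 higher and 61 to 115 lower. Of the 8 RNAs, 0 were called higher with library-total scaling or DESeq2 and 1 to 2 leaving out each library (1 without WT replicate 1, 1 without WT replicate 3), and limma-voom called 1 lower. Among the related lists, 0 were called higher with library-total scaling, DESeq2 or limma-voom, and 0 to 1 leaving out each library; 0 were called lower with library-total scaling, 1 with no low-count filter, DESeq2 or dKO replicate 3 thinned, and 1 to 2 leaving out each library.

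Library-total scaling, which keeps the ribosomal RNA row in the denominator and moved the median of all genes by 1.21, turned the sign of Malat1 (0.97), Rian (1.13), Kcnq1ot1 (0.79), Sfpq (0.69), Srrm2 (0.85), Tra2b (0.75), Son (1.06), Zfas1 (0.85), Gas5 (1.19), Xist (0.51), C130071C03Rik (1.02), Begain (0.71), Ube3a (0.96) and Grb10 (0.91); each is below that shift. Hnrnpk turned to -0.045 with dKO replicate 3 thinned and Gnas to -0.0051 with limma-voom. Leaving out each library, values ran from -0.041 to 0.18 for Neat1, -0.011 to 0.12 for Hnrnpk, -0.55 to 0.089 for Zfas1, -0.19 to 0.032 for Gas5 and -0.079 to 0.071 for Gnas. With the longest transcript as length, Malat1 over Rian was 7.63 (log2), and with the library total as denominator Malat1 took 0.108% in WT and 0.210% in dKO. The causes were not tested beyond these constructions.

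Same-numbered libraries of the groups had correlations of their deviations of 0.0262, 0.0129 and 0.0287, too low to pair them, although each library correlated best with its own number. With the replicate block, 58 genes were called higher and 100 lower, Meg3 (1.32) and Snhg11 (1.69) stayed called, and 1 related gene was called lower because Sfpq was lost.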

Other observations

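The share of counts, with the ribosomal RNA row left out, is given for the other marker lists as WT, then dKO (SD, n = 3 each). Amacrine markers, which mark inhibitory interneurons, were at 0.0268% ± 0.0019 and 0.0341% ± 0.0029, with 1 of 2 tested genes called higher and Slc18a3 at 0 in all libraries. Cone markers were at 0.0353% ± 0.00066 and 0.0255% ± 0.0034, with 1 of 3 called lower. Microglia and macrophage markers were at 0.790% ± 0.0381 and 0.837% ± 0.0285, with 1 of 14 called higher, and Müller glia and astrocyte markers had 1 of 14 called higher. T and NK cell markers, with 1 of 7 called lower, were at 0.0366% and 0.0369%, and B and plasma cell markers, with 1 of 3 called lower, at 0.347% and 0.266%. Endothelial and mural markers were at 0.337% and 0.332%, with 0 of 6 called, and oligodendrocyte markers at 0.0193% and 0.0259%, with 0 of 2 called.

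Abundant genes of these lists were also set side by side (CPM, SD, n = 3 each). The eye field factor Pax6, also made in Müller glia, was at 26.3 ± 2.44 and 26.8 ± 1.28, and the glycine transporter gene Slc6a9 rose from 1.19 ± 0.302 to 5.40 ± 1.73. The bipolar channel gene Trpm1 fell from 58.1 ± 4.58 to 39.1 ± 2.60. The cone transducin gene Gnat2 fell from 4.41 ± 0.308 to 1.83 ± 0.945, and Gnb3 was at 22.03 ± 2.35 and 17.5 ± 2.63. Glul, which makes glutamine, was at 1116 ± 11.4 and 1159 ± 40.7 and Apoe, a lipid carrier, at 642 ± 27.1 and 712 ± 27.1. The antibody light chain gene Igkc fell from 282 ± 44.6 to 195 ± 8.13, and Jchain was at 57.7 ± 3.98 and 50.1 ± 4.21. The verbs mark genes called by edgeR at an adjusted p under 0.05. Genes not called were Ctss (233 and 218) for microglia, Lck (6.92 and 9.37) and Cd4 (6.32 and 7.54) for T cells, Kdr (163 and 153) and Rgs5 (89.8 and 95.1) for vessels, and Cnp (17.2 and 21.9) and Mbp (4.05 and 5.38) for oligodendrocytes. The pan-neuronal genes Syt1 (27.4 and 27.8) and Syp (25.6 and 23.8) and the RGC list's Isl1 (7.05 and 4.24) were not called either.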
